A study of Homo sapiens with 30 samples.

Results

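The HOX genes of the 4 human clusters were followed through 8 RNA libraries of HEK293FT, a human embryonic kidney line, and set against lamina-associated domains of HCT116, a human colorectal carcinoma line. Members were taken by symbol, as every gene named HOXA, HOXB, HOXC or HOXD with a number, which gave 39 of 27630 genes. HOXA had 11 members, HOXB 10, HOXC 9 and HOXD 9. A filter on low counts kept 36 of the 39 among 16504 genes tested. The RNA libraries fell into 4 groups of 2: a nuclear fraction, a cytosolic fraction, and a pair of preparations of RNA tagged near the nuclear lamina, native or fixed with paraformaldehyde (PFA). The tagging enzyme was the peroxidase APEX2 fused to lamin B1, a protein of the lamina. All 8 libraries came from asynchronous cells that had received this fusion by transfection with Lipofectamine 2000, the fractions included, and none is labelled as an untransfected or untagged control. Ribosomal RNA was depleted before library preparation. The labels do not say that replicates came from separate cultures, so p-values measure only the spread between these libraries. The domains come from 12 samples of HCT116 lamina and input DNA labelled G1, S and G2, so they describe another cell line than the RNA.

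HOX genes encode homeodomain transcription factors that give cells their position along the body axis. Within a cluster the genes stand in the order of their paralog groups, numbered from 1 to 13, and genes of low number act towards the head while genes of high number act towards the tail, in the limbs and in the urogenital tract. HOX proteins bind DNA with partners of the TALE class (the PBX and MEIS families), and the clusters are classic targets of Polycomb silencing and of MLL and trithorax activation. In hg19, HOXA spans chr7:27132614-27239725 (107.1 kb), HOXB chr17:46606807-46806111 (199.3 kb), HOXC chr12:54332576-54449814 (117.2 kb) and HOXD chr2:176957532-177055635 (98.1 kb). HOXA and HOXB lie on the minus strand and HOXC and HOXD on the plus strand.

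The promoters shown here belong to the members that lay furthest to either side between the fractions, among those with a RefSeq entry. RefSeq (GRCh38.p14) gave a promoter for 20 of the 39 members, read as the 250 bases before the start site, 5′ to 3′ on the gene's own strand. HOXD13 (chr2:176092471-176092720, plus strand) and HOXA11 (chr7:27185233-27185482, minus strand) were lower in nuclear RNA. HOXA2 (chr7:27102684-27102933, minus strand) and HOXD4 (chr2:176151300-176151549, plus strand) were higher. Capitals mark letters that match, on either strand, the CCAAT box, known as a site of the factor NF-Y. Capitals also mark the E-box CACGTG, bound by MYC-type factors, the TATA box motif with the letters TATAAA, and the composite site TGATTNAT of PBX with HOX. In HOXD13 the TATA box and its reverse complement overlap.
HOXD13: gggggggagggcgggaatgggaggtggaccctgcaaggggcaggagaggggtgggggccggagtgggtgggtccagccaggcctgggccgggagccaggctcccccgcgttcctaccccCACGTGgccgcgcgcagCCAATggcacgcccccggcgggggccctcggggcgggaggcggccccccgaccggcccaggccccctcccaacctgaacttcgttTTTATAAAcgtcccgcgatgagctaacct
HOXA11: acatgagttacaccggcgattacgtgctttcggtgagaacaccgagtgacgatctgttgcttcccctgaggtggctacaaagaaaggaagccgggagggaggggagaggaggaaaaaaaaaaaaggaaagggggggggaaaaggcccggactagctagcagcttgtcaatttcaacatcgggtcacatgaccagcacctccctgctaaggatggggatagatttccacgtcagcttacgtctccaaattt
HOXA2: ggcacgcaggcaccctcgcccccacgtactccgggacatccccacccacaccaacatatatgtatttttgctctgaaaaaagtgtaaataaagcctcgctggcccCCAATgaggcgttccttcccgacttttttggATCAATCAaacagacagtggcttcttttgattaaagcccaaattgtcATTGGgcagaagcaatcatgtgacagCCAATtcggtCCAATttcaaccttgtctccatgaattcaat
HOXD4: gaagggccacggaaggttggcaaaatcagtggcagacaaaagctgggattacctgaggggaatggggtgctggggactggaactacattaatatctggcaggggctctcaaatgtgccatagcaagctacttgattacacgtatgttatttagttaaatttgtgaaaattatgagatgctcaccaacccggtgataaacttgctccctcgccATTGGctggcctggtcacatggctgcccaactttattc
HOXD13 had 21 CpG in these 250 bases and HOXA11 11, against 8 in HOXA2 and 4 in HOXD4. The GC content was 74.0% in HOXD13, 51.6% in HOXA11, 47.2% in HOXA2 and 47.6% in HOXD4. Over the 20 promoters the median was 20.5 CpG, against 11.0 over all 35116 promoters of the table, and the median observed over expected CpG was 0.888 against 0.558. The CCAAT box was present in 17 of the 20 (85.0%, against 32.0% of all promoters), the E-box in 7 (35.0%, against 6.34%), the TATA box in 4 (against 10.7% of all) and the composite site in 2 (against 2.48% of all), HOXA2 and HOXD11. These letter matches are descriptions and not binding sites, and the start sites of the table need not be those used in these cells.

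Total counts ran from 2321291 in PFA lamina replicate 2 to 8557777 in native lamina replicate 1, and 3 counts corresponded to 0.312 to 1.10 CPM, the unit of counts scaled to equal library totals. CPM values carry TMM factors. Summed over 3 nuclear RNAs (MALAT1, NEAT1 and KCNQ1OT1), CPM was 13760 and 22810 in the nuclear, 970 and 1297 in the cytosolic, 6343 and 13570 in the native lamina and 712 and 4106 in the PFA lamina libraries. GAPDH, ACTB and EEF1A1, abundant mRNAs of the cytosol, summed to 813 and 1341, 4744 and 8056, 2047 and 2055, and 2538 and 1549 in the same order. PFA lamina replicate 1 stood apart: the correlation of its log2 CPM was 0.957 with cytosolic replicate 1 but 0.911 with PFA lamina replicate 2, across genes, which are not independent. The header of cytosolic replicate 1 carries the output name of a nuclear library while its input is named as cytosolic, and it correlated with the other cytosolic library at 0.968 and with that nuclear library at 0.790. All 5 HEK293 markers (PAX2, LHX1, NEFM, NEFL and INA) had counts in every group, with summed levels of 66.5 to 84.8 CPM in the nuclear, 275 to 330 in the cytosolic, 206 to 292 in the native lamina and 124 to 168 in the PFA lamina libraries. Of 5 erythroid markers of K562, another line of the series, 4 were at 0 in all 8 libraries, and GATA1 had 8 and 10 counts in the nuclear and 0 to 7 in the other libraries. Of 5 intestinal markers of HCT116, CDX2 was at 9.34 to 48.4 CPM over the 8 libraries. VIL1 was at 10.3 and 12.7 CPM in the nuclear libraries and at 0 to 5.15 in the others, and CDX1, KRT20 and CEACAM5 were too low to be tested. The part of these markers in the results below was not tested.

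HOX RNA from all 4 clusters was present in every library. The 39 members together reached 686.5 ± 26.6 CPM in nuclear and 759 ± 88.5 in cytosolic RNA, and 779 ± 28.3 and 677 ± 31.2 in the native and the fixed lamina preparation (mean ± SD, n = 2 each). Per cluster, HOXA summed to 171 ± 18.5, 193 ± 29.2, 189.6 ± 5.51 and 190.6 ± 6.36 CPM in that order, and HOXC to 94.2 ± 6.81, 110.6 ± 4.84, 110.3 ± 9.09 and 119 ± 27.4. HOXB was at 199 ± 32.8, 260.1 ± 8.75, 218 ± 26.7 and 203 ± 4.83 CPM, and HOXD at 222 ± 31.5, 195.5 ± 45.7, 261 ± 16.1 and 165 ± 7.41. HOXD was thus highest at the native lamina and HOXB in the cytosolic fraction. A sum over a cluster is not a test, and in bulk RNA fewer cells with a transcript and less of it per cell cannot be told apart.

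Per kb of exon, the highest members were HOXD11 at 33.6 CPM per kb, HOXD10 at 33.3 and HOXB9 at 32.5, as means over the 8 libraries. HOXD13 followed at 26.2. HOXD10, HOXD11 and HOXD13 are the limb genes of the 5′ end of HOXD, and HOXB9 belongs to the thoracic part of the axis. These 4 lay above 92.0% (HOXD11), 91.8% (HOXD10), 91.6% (HOXB9) and 88.3% (HOXD13) of the genes tested, whose median was 6.30 CPM per kb. The leading members of HOXA were HOXA5 at 15.3, HOXA6 at 15.0 and HOXA10 at 12.2 CPM per kb, and those of HOXC were HOXC4 at 10.8, HOXC6 at 8.09 and HOXC11 at 7.39. In HOXB, HOXB6 at 13.6 and HOXB3 at 9.79 came after HOXB9. Of the members tested, HOXD1 was lowest at 1.33 CPM per kb, and 15.7% of the genes tested lay below it.

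The order of the leading members depended on the group. In the nuclear fraction HOXD10 led at 51.8 ± 6.18 CPM per kb, above HOXD11 at 35.0 ± 1.89. In the cytosolic fraction HOXB9 led at 52.6 ± 0.836, and HOXD13 came next at 41.6 ± 11.0. HOXD11 at 47.6 ± 5.98 and HOXD10 at 45.9 ± 3.37 led at the native lamina and did not differ beyond their spread. At the PFA lamina HOXB9 at 29.1 ± 9.17, HOXD13 at 28.9 ± 10.01 and HOXD11 at 22.7 ± 3.40 overlapped (mean ± SD, n = 2 each).

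The other members tested lay between 2.38 and 10.7 CPM per kb. As means over the 8 libraries, HOXA9 was at 10.7, HOXA11 at 7.46, HOXA3 at 6.30, HOXA4 at 5.17, HOXA7 at 4.13, HOXA13 at 4.05 and HOXA2 at 3.20 CPM per kb. In HOXB, HOXB4 was at 6.82, HOXB7 at 6.49, HOXB2 at 6.38, HOXB13 at 5.60 and both HOXB8 and HOXB5 at 5.54. HOXC10 was at 6.35, HOXC9 at 5.90, HOXC13 at 5.88, HOXC5 at 3.26 and HOXC8 at 2.81. In HOXD, HOXD9 was at 9.51, HOXD4 at 5.14, HOXD8 at 2.82 and HOXD3 at 2.38.

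The 3 members outside the test were HOXB1, HOXC12 and HOXD12. HOXB1, a hindbrain gene, had 1 count in all 8 libraries together, in native lamina replicate 2. HOXC12 had 1 to 15 counts per library and HOXD12 2 to 6. HOXC12 and HOXD12 stand next to HOXC13 and HOXD13 in their clusters, and both neighbours were measured well above them. These 3 were at or near the floor, so no fold change is given for them.

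**Figure D1:**
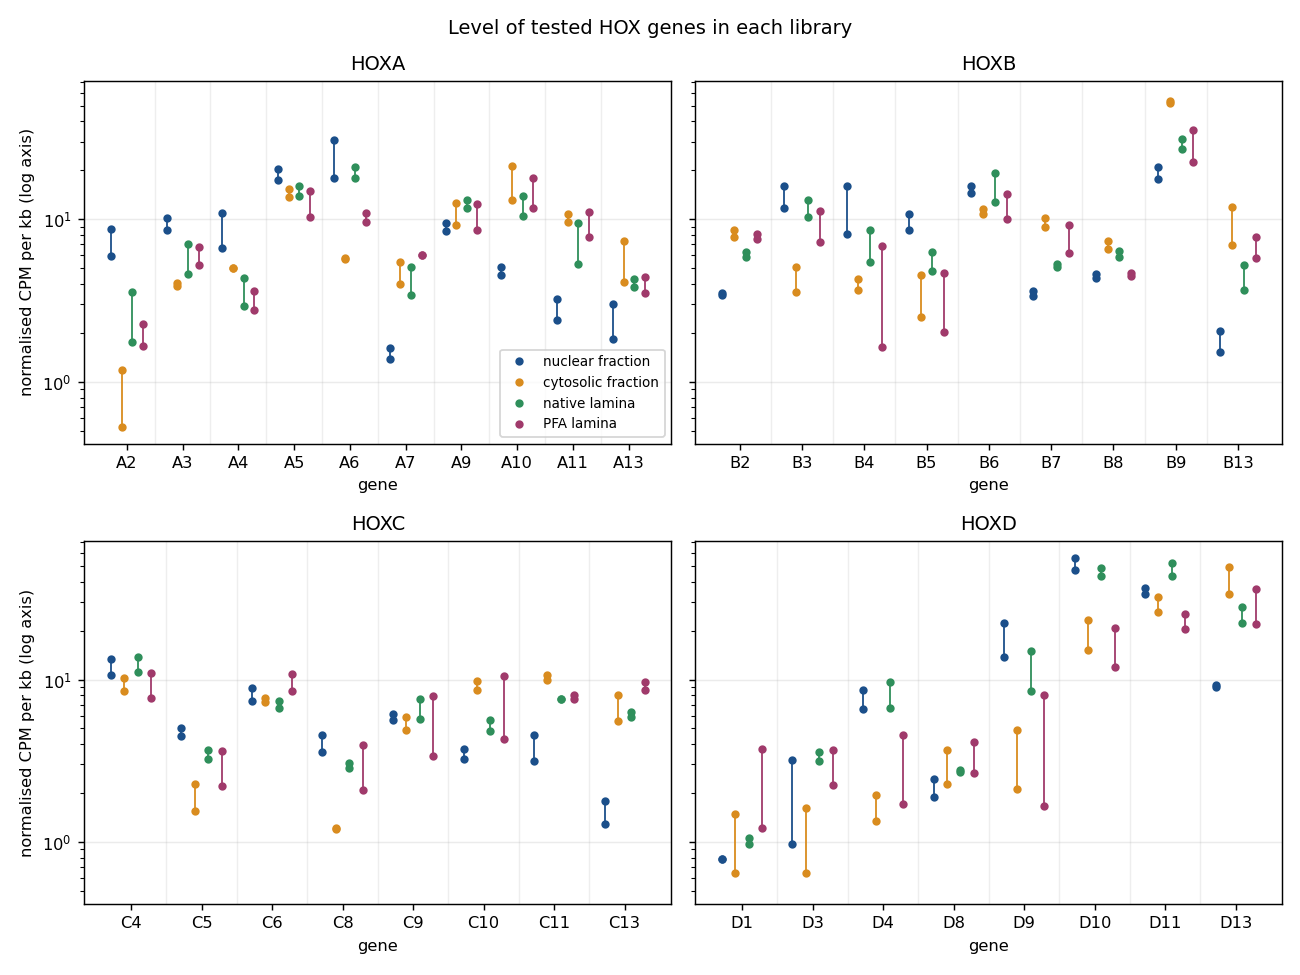
Level of tested HOX genes in each of the 8 libraries, by cluster, in normalised CPM per kb of exon on a log axis; each point is 1 library, points of a group are joined, and colours mark the 4 groups. HOXB9, HOXD10, HOXD11 and HOXD13 are the highest genes, and genes of low and of high number differ in which fraction is on top.

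The first comparison set the level of each HOX RNA in the nuclear libraries against that in the cytosolic libraries. Levels are relative to the other RNAs of a library, so fold changes do not give amounts per compartment. Of 36 members tested, 23 (63.9%) differed between the nuclear and the cytosolic fraction at a Benjamini-Hochberg adjusted p under 0.05 in the quasi-likelihood test of edgeR. In the nuclear fraction 11 were higher and 12 were lower. Of all 16504 genes tested, 47.3% passed the same test, 26.1% higher and 21.2% lower. The members' median log2 fold change was 0.12, beside 0.13 over all genes tested, and single members ran from -2.39 to 3.14. Both nuclear libraries lay above both cytosolic libraries for 16 members and below for 14, while 6 overlapped. Over all genes the first held for 42.5% and the second for 35.4%. The count of calls was 13 without nuclear replicate 1 and 15 without nuclear replicate 2, cytosolic replicate 1 or cytosolic replicate 2. In each of the 8 leave-outs 9 members kept their call: HOXA2, HOXA6 and HOXB3 on the nuclear side and HOXA10, HOXA11, HOXB9, HOXB13, HOXC13 and HOXD13 on the cytosolic side. The other 14 lost it without at least 1 library, and none of the 23 changed sign.

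Every measured gene of paralog group 13, the last of each cluster, was on the cytosolic side. HOXB13, a gene of the prostate and tail bud, was at 6.22 and 4.64 CPM in the nuclear, 35.97 and 21.1 in the cytosolic, 15.8 and 11.2 in the native lamina and 23.5 and 17.7 in the PFA lamina libraries. It was 5.25-fold lower in the nuclear fraction (log2 fold change -2.39, SE 0.39, edgeR adjusted p = 0.000943). HOXD13, a gene of the digits, was at 21.0 and 21.5 CPM in the nuclear, 115 and 78.7 in the cytosolic, 65.0 and 52.0 in the native lamina and 83.7 and 50.8 in the PFA lamina libraries. Its nuclear libraries were nearly equal and lay below all 6 others (log2 fold change -2.19, SE 0.33, edgeR adjusted p = 0.000732). HOXC13, which acts in hair and nail, was at 3.11 and 4.29 CPM in the nuclear, 19.1 and 13.3 in the cytosolic, 15.1 and 14 in the native lamina and 20.7 and 23.2 in the PFA lamina libraries. The nuclear libraries again lay below all others (log2 fold change -2.14, SE 0.38, edgeR adjusted p = 0.00132). HOXA13, a gene of the hand, foot and genital tract, was at 6.13 ± 2.11 CPM in nuclear and 14.4 ± 5.72 in cytosolic RNA (log2 fold change -1.24, edgeR adjusted p = 0.0315), and it lost its call without nuclear replicate 1, nuclear replicate 2 or cytosolic replicate 1. It also lost it with total counts (adjusted p = 0.0551), upper-quartile factors (0.0895) and at least 10 counts in every library (0.0555).

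The other genes of high number that were lower in the nuclear fraction came from HOXA, HOXB and HOXC. HOXA10, a gene of the uterus and of the leukaemia programme, was at 16.2 and 14.4 CPM in the nuclear, 67.4 and 41.9 in the cytosolic, 44.4 and 33.3 in the native lamina and 57.1 and 37.1 in the PFA lamina libraries (log2 fold change -1.84, SE 0.34, edgeR adjusted p = 0.00149). HOXA11, which patterns the forearm and the kidney, was at 6.38 and 8.59 CPM in the nuclear, 25.4 and 28.8 in the cytosolic, 25.1 and 14 in the native lamina and 29.4 and 20.6 in the PFA lamina libraries (log2 fold change -1.85, SE 0.38, edgeR adjusted p = 0.00224). For both genes every nuclear library was below every other library. HOXA10 shares 38.4% of its exonic bases with HOXA10-AS and the read-through HOXA10-HOXA9, so its counts are not its own alone. HOXB9 was at 48.1 and 56.5 CPM in the nuclear, 140.4 and 144 in the cytosolic, 72.8 and 84.4 in the native lamina and 96.1 and 61.1 in the PFA lamina libraries (log2 fold change -1.44, SE 0.29, edgeR adjusted p = 0.00221). It is the member with the most cytosolic RNA per kb, and its cytosolic libraries stood above the other 6. HOXC10 was at 7.32 and 6.36 CPM in the nuclear, 17.0 and 19.2 in the cytosolic, 11.0 and 9.43 in the native lamina and 20.7 and 8.46 in the PFA lamina libraries (log2 fold change -1.40, edgeR adjusted p = 0.0169). HOXC11 was at 6.38 and 9.28 CPM in the nuclear, 21.8 and 20.1 in the cytosolic, 15.5 in each native lamina and 16.4 and 15.4 in the PFA lamina libraries (log2 fold change -1.42, edgeR adjusted p = 0.00516). HOXC10 and HOXC11 act in the lumbar and hindlimb region, and their nuclear and cytosolic libraries did not overlap.

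Members of low number on the cytosolic side numbered 3. HOXA7 was at 2.80 and 3.26 CPM in the nuclear, 11.0 and 8.04 in the cytosolic, 10.2 and 6.92 in the native lamina and 12.2 and 12.1 in the PFA lamina libraries (log2 fold change -1.65, edgeR adjusted p = 0.00946). Its exons share 74.6% of their bases with HOXA-AS3, a transcript of the opposite strand that went the other way, and the counting ignored strand, so HOXA7's own share of these reads cannot be told apart. HOXB7, a gene of the trunk, was at 4.98 and 4.64 CPM in the nuclear, 12.2 and 13.96 in the cytosolic, 7.28 and 6.92 in the native lamina and 12.6 and 8.46 in the PFA lamina libraries (log2 fold change -1.43, edgeR adjusted p = 0.0127). HOXB2, a gene of the hindbrain, was at 5.60 and 5.50 CPM in the nuclear, 12.4 and 13.7 in the cytosolic, 9.36 and 10.02 in the native lamina and 12.9 and 12.1 in the PFA lamina libraries (log2 fold change -1.23, edgeR adjusted p = 0.0174). HOXB2 lost its call with upper-quartile factors. HOXB2 and HOXB7 share no exonic base with another gene.

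On the nuclear side HOXA2 had the largest log2 fold change of the members. HOXA2, which sets the identity of the second pharyngeal arch, was at 10.6 and 15.5 CPM in the nuclear, 0.936 and 2.12 in the cytosolic, 3.12 and 6.34 in the native lamina and 2.96 and 4.05 in the PFA lamina libraries. Its cytosolic libraries held 7 and 10 counts. It was 8.80-fold higher in the nuclear fraction (log2 fold change 3.14, SE 0.61, edgeR adjusted p = 0.00179). Over the leave-outs its log2 fold change ran from 2.59 to 3.75. HOXD4, a gene of the hindbrain and neck, was at 11.2 and 8.59 CPM in the nuclear, 1.74 and 2.54 in the cytosolic, 8.63 and 12.5 in the native lamina and 2.22 and 5.89 in the PFA lamina libraries. Its nuclear and native lamina libraries lay above the cytosolic and PFA libraries (nuclear over cytosolic log2 fold change 2.23, SE 0.56, edgeR adjusted p = 0.00625). HOXA6 was at 14.3 and 24.6 CPM in the nuclear, 4.55 and 4.65 in the cytosolic, 14.3 and 16.9 in the native lamina and 7.76 and 8.83 in the PFA lamina libraries (log2 fold change 2.07, SE 0.40, edgeR adjusted p = 0.00181). HOXA6 shares 13.1% of its exonic bases with HOXA-AS3.

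Neighbouring genes of groups 3 to 5 and HOXC8 were also higher in the nuclear fraction. HOXB3 was at 46.8 and 63.7 CPM in the nuclear, 20.5 and 14.4 in the cytosolic, 41.2 and 52.5 in the native lamina and 29.2 and 45.2 in the PFA lamina libraries (log2 fold change 1.66, SE 0.33, edgeR adjusted p = 0.00208). HOXA3, needed for the thymus and parathyroid, was at 29.7 and 35.4 CPM in the nuclear, 13.5 and 14.2 in the cytosolic, 16.0 and 24.6 in the native lamina and 18.3 and 23.5 in the PFA lamina libraries (log2 fold change 1.23, edgeR adjusted p = 0.00809). HOXB3 and HOXA3 are the longest genes of their clusters on the genome. HOXB5 was at 15.7 and 19.8 CPM in the nuclear, 4.55 and 8.25 in the cytosolic, 8.73 and 11.5 in the native lamina and 3.70 and 8.46 in the PFA lamina libraries (log2 fold change 1.49, edgeR adjusted p = 0.0195). HOXC8, a gene of the thorax and brachial cord, was at 10.4 and 8.25 CPM in the nuclear, 2.81 and 2.75 in the cytosolic, 6.96 and 6.48 in the native lamina and 9.05 and 4.78 in the PFA lamina libraries (log2 fold change 1.74, edgeR adjusted p = 0.0116). HOXB4, used in work on blood stem cells, and HOXC5 had log2 fold changes of 1.60 (edgeR adjusted p = 0.0271; 1.01 and adjusted p = 0.231 without nuclear replicate 2) and 1.29 (adjusted p = 0.0333, lost with total counts). HOXC4, HOXC5 and HOXC6 are annotated from the same start and have 563 exonic bases in common, so their counts are not separate. HOXB3 shares 6.97% of its exonic bases with HOXB-AS1, HOXB5 4.01% with HOXB-AS3 and HOXA3 2.42% with HOXA-AS2.

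HOXD9 and HOXD10 were the only genes of groups 9 to 13 called higher in the nuclear fraction. HOXD9 was at 41.7 and 25.9 CPM in the nuclear, 9.22 and 4.02 in the cytosolic, 16.0 and 28.3 in the native lamina and 3.14 and 15.1 in the PFA lamina libraries (log2 fold change 2.32, SE 0.59, edgeR adjusted p = 0.00666). Over the leave-outs its log2 fold change ran from 1.85 to 3.05. HOXD10 was at 101 and 85.6 CPM in the nuclear, 41.9 and 27.3 in the cytosolic, 78.5 and 87.1 in the native lamina and 21.4 and 37.1 in the PFA lamina libraries (log2 fold change 1.43, SE 0.32, edgeR adjusted p = 0.00377). Both genes act in the lumbar axis and the limb, and neither shares exonic bases with another gene. Between them and HOXD13 stands HOXD11, at 53.2 and 49.3 CPM in the nuclear, 47.1 and 37.9 in the cytosolic, 63.5 and 75.9 in the native lamina and 29.8 and 36.8 in the PFA lamina libraries. Its nuclear and cytosolic levels lay close together (log2 fold change 0.27, SE 0.27, edgeR adjusted p = 0.432).

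Members with no call in this comparison numbered 13. HOXA5, a gene of the lung, was at 28.8 and 34.0 CPM in the nuclear, 25.4 and 22.8 in the cytosolic, 23.1 and 26.7 in the native lamina and 17.2 and 24.6 in the PFA lamina libraries. HOXB6 was at 24.3 and 26.8, 19.5 and 18.2, 21.3 and 32.1, and 16.8 and 23.9 CPM in the same order. HOXC4 was at 24.9 and 31.3, 20.1 and 24.1, 32.4 and 26.2, and 25.7 and 18.0 CPM, and HOXC6 at 16.6 and 19.9, 17.4 and 16.3, 16.6 and 14.9, and 24.4 and 19.1. For these 4 genes the nuclear and cytosolic means differed by log2 fold changes of 0.38 (HOXA5), 0.44 (HOXB6), 0.35 (HOXC4) and 0.12 (HOXC6). Further, HOXA4 was at 0.81 and HOXD3 at 0.83, HOXC9 was at 0.12, and HOXA9 (-0.29), HOXB8 (-0.64), HOXD1 (-0.48) and HOXD8 (-0.45) were below 0. HOXA9, the leukaemia gene of the cluster, shares 72.6% of its exonic bases with the read-through transcript HOXA10-HOXA9, so its value belongs to both.

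Genes of low number and genes of high number thus lay on different sides, with exceptions in both. In groups 1 to 8, 9 of 22 members were called higher and 3 lower in the nuclear fraction, and the median log2 fold change was 0.62. In groups 9 to 13, 2 of 14 were called higher and 9 lower, and the median was -1.41. Of all genes tested, 26.1% were called higher and 21.2% lower. The division of the members by group number was chosen after the values were seen and carries no test. Summed over members, groups 1 to 8 had 353 ± 47.6 CPM in nuclear and 225 ± 2.13 in cytosolic RNA, and groups 9 to 13 had 334 ± 21.0 and 535 ± 86.4. Across the 36 members, which share libraries and neighbours and are not independent, Spearman's rho between group number and log2 fold change was -0.55. Within clusters it was -0.67 in HOXA (11 members), -0.72 in HOXB (9), -0.79 in HOXC (8) and -0.12 in HOXD (8). The 21 members without shared exonic bases gave -0.52, and exonic length in place of group number gave -0.37. Exonic counts of ribosome-depleted RNA do not separate spliced from unspliced transcripts.

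**Figure D2:**
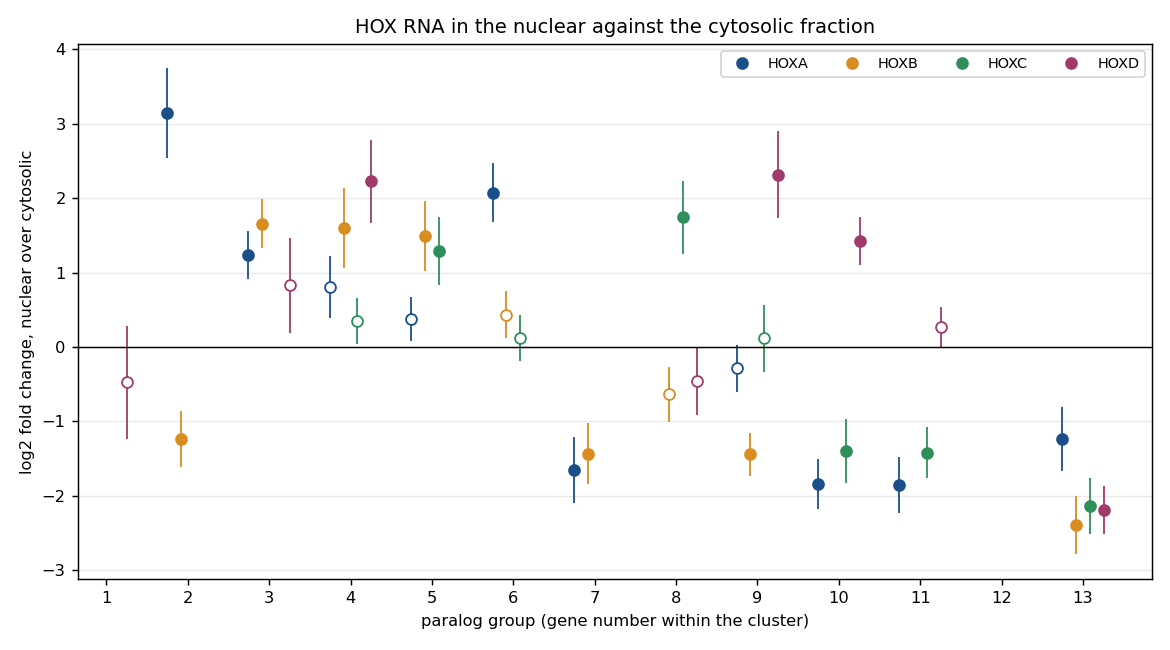
Log2 fold change of tested HOX genes, nuclear over cytosolic fraction, with its standard error, against the paralog group number; colours mark the cluster, filled points are called at adjusted p under 0.05 and open points are not. Genes of groups 3 to 6 lie at or above 0, all 4 genes of group 13 lie below, and HOXD9 and HOXD10 stand above 0 among the genes of high number.

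Paralogs of 1 number were not always alike. The group 2 genes lay on opposite sides, HOXA2 at a log2 fold change of 3.14 and HOXB2 at -1.23. In group 9, HOXD9 was at 2.32 and HOXB9 at -1.44, with HOXA9 and HOXC9 between them at -0.29 and 0.12. In group 10, HOXD10 was at 1.43, while HOXA10 was at -1.84 and HOXC10 at -1.40. These differences between paralogs were not tested.

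The lamina preparations were compared with each fraction. These comparisons share fraction libraries with each other and with the first comparison. Their values are therefore given side by side and not as independent evidence, and members recurring between them are partly a product of that sharing. Against the nuclear fraction, the native lamina had 4 members higher and 0 lower (11.1% of the 36, beside 7.31% of all genes tested, 3.87% higher and 3.44% lower). The members' median log2 fold change was 0.35, beside -0.07 over all genes tested. By edgeR, the log2 fold change was 1.97 for HOXC13 (SE 0.38, adjusted p = 0.0145), 1.46 for HOXD13 (SE 0.32, adjusted p = 0.0235), 1.39 for HOXA11 (SE 0.37, adjusted p = 0.0426) and 1.34 for HOXA10 (SE 0.34, adjusted p = 0.0343). All 4 were among the members on the cytosolic side above, and for each both native lamina libraries lay above both nuclear libraries. HOXA11 lost its call with upper-quartile factors. At an unadjusted p under 0.05 there were 11 of 36 members, beside 28.8% of all genes tested, among them HOXA2 at -1.47 and HOXA4 at -1.27, whose native lamina libraries were below the nuclear ones. The count of calls fell to 0 without either nuclear or either native lamina library, and it was 9 without either PFA lamina library.

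Against the cytosolic fraction, the native preparation had 4 other members higher and 0 lower (11.1%, beside 13.8% of all genes tested, 6.99% higher and 6.77% lower), with a median of 0.11 beside 0.10. By edgeR, the log2 fold change was 2.32 for HOXD4 (SE 0.55, adjusted p = 0.0181), 1.76 for HOXA6 (SE 0.40, adjusted p = 0.0153), 1.42 for HOXB3 (SE 0.33, adjusted p = 0.0164) and 1.25 for HOXD10 (SE 0.32, adjusted p = 0.0237). These 4 were among the members on the nuclear side above, and their native lamina libraries lay above both cytosolic libraries. At an unadjusted p under 0.05 there were 13 of 36 members, beside 31.7% of all genes tested, with HOXB13 at -1.08 and HOXB9 at -0.85 on the lower side. The count was 0 without cytosolic replicate 1, cytosolic replicate 2 or native lamina replicate 2, 10 without PFA lamina replicate 1 and 9 without PFA lamina replicate 2. No member was called above or below both fractions at the native lamina.

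Set against the nuclear fraction, the PFA lamina had 6 members higher and 6 lower (33.3% of the 36, beside 17.4% of all genes tested, 9.63% higher and 7.81% lower), with a median log2 fold change of 0.11 beside -0.04. The 6 higher members were HOXC13 at a log2 fold change of 2.56 (edgeR SE 0.39, adjusted p = 0.00577), HOXA7 at 2.00, HOXB13 at 1.92, HOXA11 at 1.75, HOXD13 at 1.67 and HOXA10 at 1.63. All 6 belonged to the cytosolic side in the first comparison, which used the same nuclear libraries. The 6 lower members were HOXD9 at -1.998, HOXA2 at -1.92, HOXD10 at -1.69 (SE 0.33, edgeR adjusted p = 0.00914), HOXB5 at -1.61, HOXA4 at -1.48 and HOXA6 at -1.23. Except for HOXA4, these belonged to the nuclear side there. HOXA4 shares 14.7% of its exonic bases with HOXA-AS2, so its counts are not its own alone. With total counts in place of TMM factors the split was 6 higher and 1 lower, HOXD10 alone keeping its call among the lower members. The fixed libraries were not alike for HOXD9, at 3.14 and 15.1 CPM, and its log2 fold change was -1.15 (adjusted p = 0.202) without PFA lamina replicate 1 and -3.41 without PFA lamina replicate 2. HOXB5 was at -1.05 (adjusted p = 0.247) without PFA lamina replicate 1 and at -2.24 without PFA lamina replicate 2. The count of calls was 0 without nuclear replicate 1, 2 without nuclear replicate 2, 5 without PFA lamina replicate 1 and 19 without PFA lamina replicate 2.

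**Figure D3:**
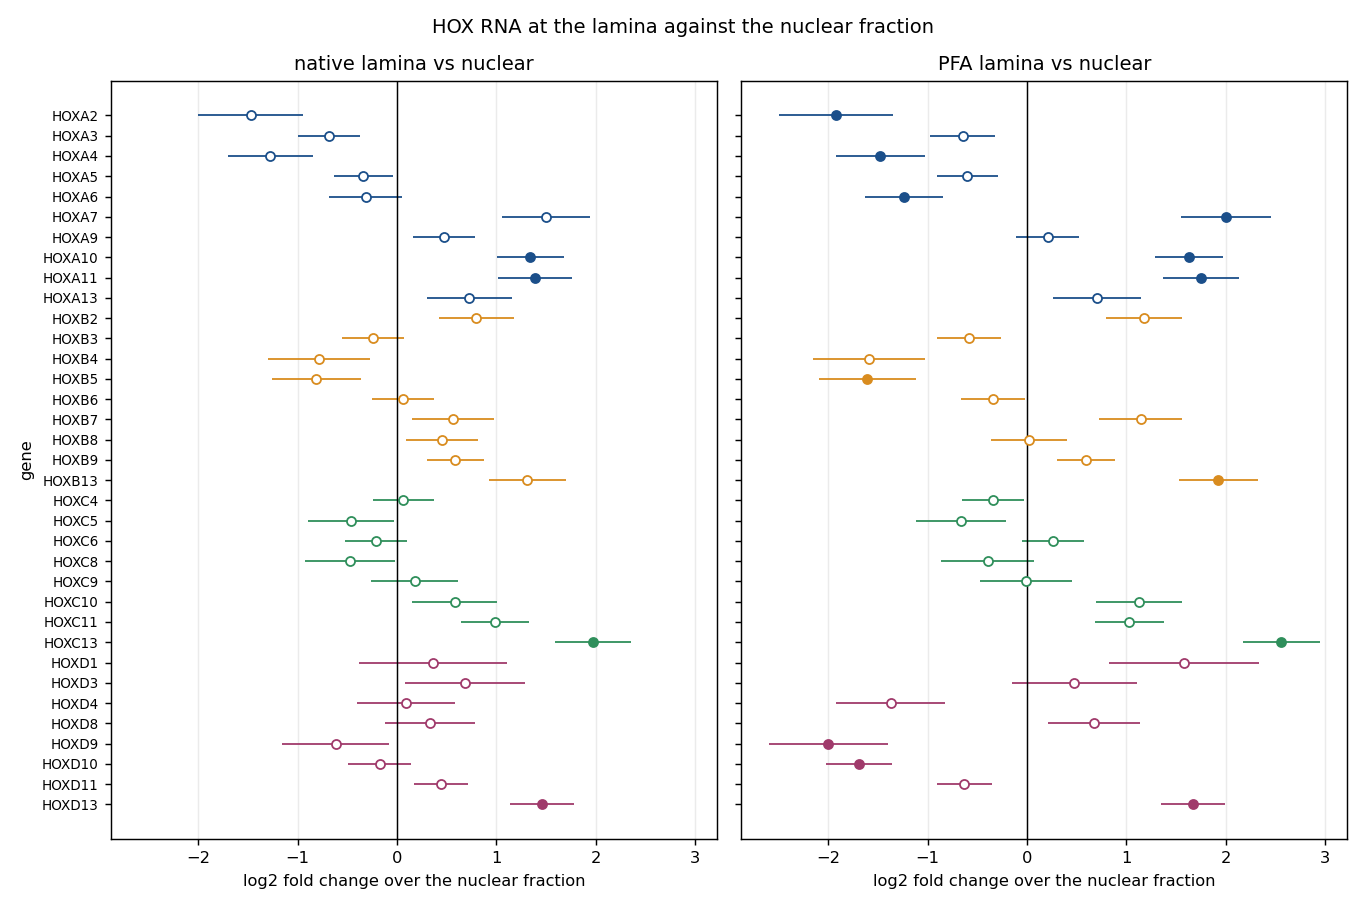
Log2 fold change over the nuclear fraction for tested HOX genes in the native (left) and the PFA (right) lamina preparation, with standard errors; colours mark the cluster and filled points are called at adjusted p under 0.05. HOXA10, HOXA11, HOXC13 and HOXD13 are called higher in both panels, which share their nuclear libraries, and the 6 genes called lower are in the right panel.

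No member was called between the PFA lamina and the cytosolic fraction by edgeR, where 0.673% of all genes passed, and none by the Wald test of DESeq2. An unadjusted p under 0.05 was reached by 3 of 36 members, beside 21.5% of all genes tested: HOXB3 at a log2 fold change of 1.07, HOXC8 at 1.35 and HOXB9 at -0.85, and the smallest adjusted p was 0.107. Without PFA lamina replicate 1, 2 members were called. Between the PFA and the native lamina edgeR called 0 members and 0% of all genes. Members at an unadjusted p under 0.05 numbered 5 of 36, beside 11.0% of all genes tested, all with lower values in the fixed libraries: HOXD10 at -1.52, HOXD4 at -1.46, HOXD9 at -1.38, HOXD11 at -1.07 and HOXA6 at -0.92. The Wald test of DESeq2 called 2 of the members lower, and edgeR called 5 lower without PFA lamina replicate 2. HOXD9, HOXD10 and HOXD11 are neighbours, and the summed level of HOXD was 261 ± 16.1 CPM at the native and 165 ± 7.41 at the PFA lamina.

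Most members, like most genes tested, had mean lamina levels between those of the fractions. The native lamina mean fell between the nuclear and the cytosolic mean for 26 of 36 members (72.2%, beside 60.5% of all genes tested), and the PFA lamina mean for 23 (63.9%, beside 61.9%). HOXD11 had both native lamina libraries above all 4 fraction libraries, and HOXA4 had both below. HOXA7 and HOXC13 had both PFA lamina libraries above all 4, and HOXA4 and HOXD11 had both below. HOXA4 was at 11.5 and 18.9 CPM in the nuclear, 8.69 and 8.67 in the cytosolic, 5.09 and 7.51 in the native lamina and 4.80 and 6.25 in the PFA lamina libraries. It shares exonic bases with HOXA-AS2. HOXD11 thus stood above both fractions in the native and below both in the fixed preparation. None of these genes was called against both fractions. Over all genes tested, 7.19% had both native libraries above all 4 fraction libraries and 6.70% both PFA libraries. Both libraries lay below all 4 for 6.41% of all genes tested in the native and 4.65% in the PFA preparation.

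**Figure D4:**
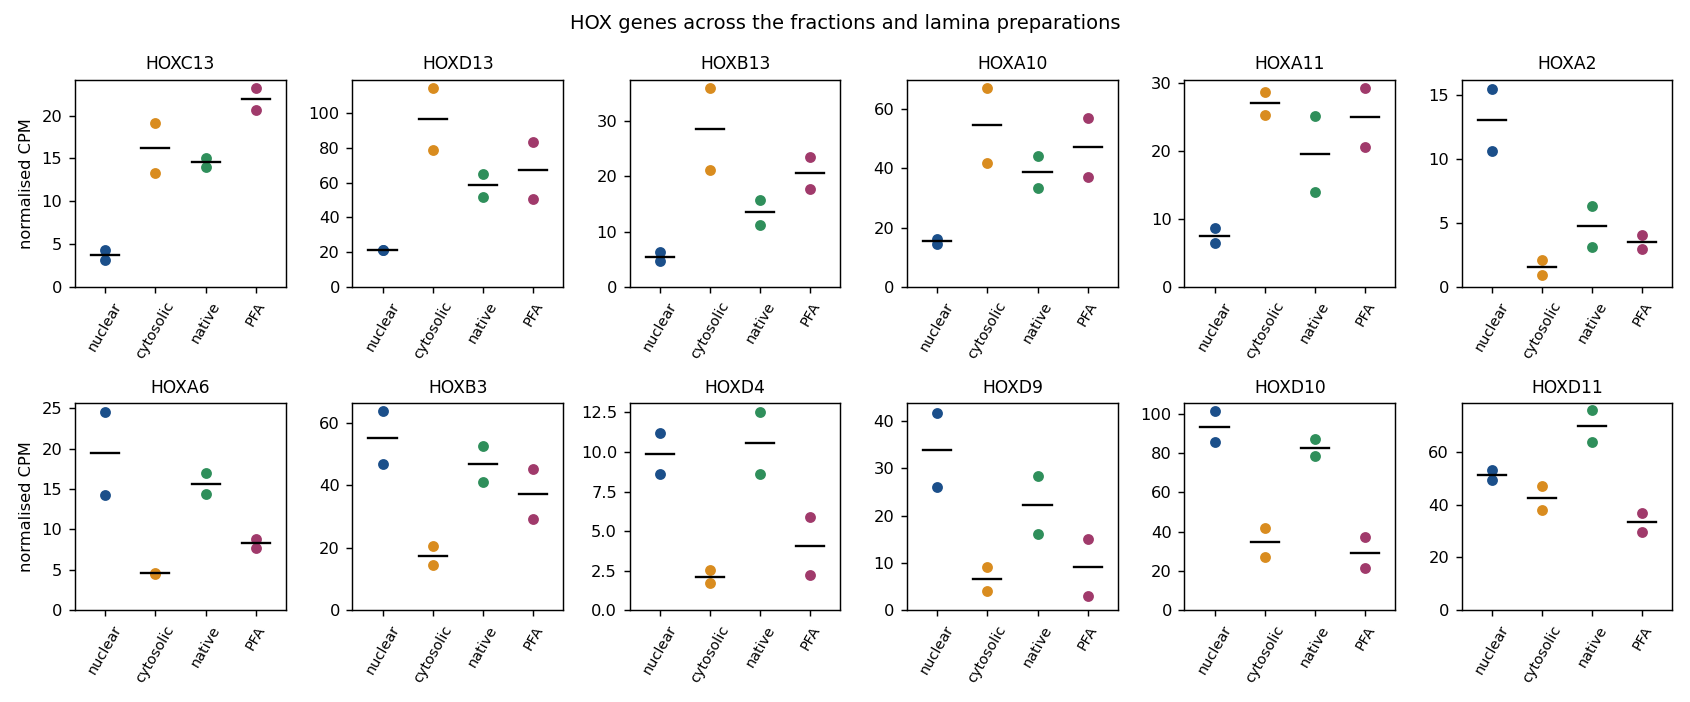
Normalised CPM of 12 HOX genes in the 8 libraries, with a point for each library and a bar at the mean of each group of 2; axes start at 0 and differ in scale. The panels of HOXC13, HOXD13, HOXB13, HOXA10 and HOXA11 are lowest in the nuclear fraction, those of HOXA2 and HOXA6 are highest there, and HOXD11 is highest at the native lamina and lowest at the PFA lamina.

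The nuclear and cytosolic marker RNAs also differed between these groups. The 3 nuclear RNAs were all called higher in the nuclear than in the cytosolic libraries, with a median log2 fold change of 3.96, and the 3 cytosolic mRNAs all lower, with a median of -2.49. At the native lamina, 0 of the 3 nuclear RNAs were called against the nuclear fraction (median -1.89) and 2 were higher than in the cytosolic one (median 3.06). Of the cytosolic mRNAs there, 1 of 3 was higher than in the nuclear fraction (median 0.54) and 2 were lower than in the cytosolic one (median -1.57). At the PFA lamina all 3 nuclear RNAs were called lower than in the nuclear fraction (median -2.90), and 0 were called against the cytosolic one (median 1.05). Of the cytosolic mRNAs, 1 of 3 was higher there than in the nuclear fraction (median 0.68) and 1 was lower than in the cytosolic one (median -1.64). The summed nuclear RNAs in PFA lamina replicate 1, 712 CPM, were below both cytosolic libraries. Their part in the HOX results at the lamina was not tested.

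The antisense and long noncoding RNAs of the clusters were counted beside the HOX genes. Of 29 listed, 23 were in the table and 17 were tested. Between the fractions 4 were higher and 1 lower in the nuclear one, beside 26.1% and 21.2% of all genes tested, with a median log2 fold change of 0.30. HOXA-AS2 was at 10.3 and 13.1 CPM in the nuclear and 1.87 and 2.33 in the cytosolic libraries (log2 fold change 2.48, edgeR adjusted p = 0.00372). It shares 84 exonic bases with HOXA3 and 254 with HOXA4, so the reads of these genes cannot be fully separated. HOXB-AS1 was at a log2 fold change of 1.45, HOXA-AS3 at 1.17 and HOXB-AS3 at 0.98, all higher in the nuclear fraction. HOXA10-AS was lower at -1.46, on the side of HOXA10, with which it shares exonic bases. At the PFA lamina HOXC13-AS was higher than in the nuclear fraction, from 2.18 and 1.03 to 13.7 and 9.56 CPM (log2 fold change 2.84, edgeR adjusted p = 0.0104). It lies beside HOXC13, shares 172 exonic bases with it, and the reads of the pair cannot be fully separated. HOTAIR, the noncoding RNA of HOXC known for its link to Polycomb, was at 10.4 ± 3.08 CPM in the nuclear, 7.52 ± 1.66 in the cytosolic, 13.6 ± 3.58 in the native lamina and 11.8 ± 2.12 in the PFA lamina group and was not called in any of the 6 comparisons. HOTTIP, the noncoding RNA beyond HOXA13, was at 2.44 ± 0.292, 1.99 ± 0.172, 2.45 ± 1.38 and 3.41 ± 1.42 CPM and was not called either.

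Partners and regulators of HOX genes were read from lists chosen by symbol, whose counts stand beside the 26.1% of all genes tested that were higher and the 21.2% that were lower in the nuclear fraction. Of 12 TALE genes, 2 were called higher and 5 lower in nuclear against cytosolic RNA, with a median log2 fold change of -0.26. The lower ones included the cofactors PBX3 at -1.35 and PBX2 at -1.35, and the higher ones were PBXIP1, an inhibitor of PBX, at 1.78 and PBX4 at 1.72. MEIS1 at 13.5 ± 2.06 and 13.8 ± 4.98 CPM and MEIS2 at 21.9 ± 0.838 and 24.4 ± 1.85 CPM had like levels in the nuclear and cytosolic fractions. Of 27 Polycomb genes, 5 were higher and 10 lower, with a median of -0.38. The catalytic subunits EZH1 at 1.51 and EZH2 at 1.26 were among the higher, and RBBP7 at -1.81, RNF2 at -1.63 and BMI1 at -1.23 among the lower. Of 14 MLL and trithorax genes, 1 was higher (KMT2C at 1.02) and 3 were lower (HCFC1, DPY30 and MEN1), with a median of -0.22. Of 15 tested genes that flank the clusters or encode CDX or PDX1 factors, 1 was higher and 7 were lower. CDX2, an activator of HOX genes, was at 9.34 and 15.6 CPM in the nuclear and 41.9 and 48.4 in the cytosolic libraries (log2 fold change -1.85, edgeR adjusted p = 0.00118).

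The domain lists were used to place the clusters relative to the lamina in HCT116. None of the 39 HOX genes overlapped a domain in G1, S or G2, while 7.96% of 27200 placed genes did in G1, 6.83% in S and 9.54% in G2. The 39 genes lie in 4 clusters and are not independent positions. HOXC had its nearest domain 15.8 (G1), 19.5 (S) and 19.4 Mb (G2) away. HOXD was at 8.36, 8.96 and 9.16 Mb, HOXA at 4.26, 14.5 and 4.36 Mb, and HOXB at 2.89 Mb in each stage. The median distance over all genes was 2.40 (G1), 3.16 (S) and 2.12 Mb (G2). Of all placed genes, 8.06%, 6.51% and 5.71% lay at least as far as HOXC in the 3 stages, 17.4%, 20.5% and 13.5% at least as far as HOXD, and 45.1%, 52.5% and 41.9% at least as far as HOXB. HOXB was therefore near the middle of all genes. On these lists HOXC was the farthest cluster in each stage, but with only domains of at least 500 kb HOXD was at 27.9 Mb in G2, beyond HOXC at 19.4 Mb.

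HOXA lay farther from its nearest domain in S than in G1 and G2. With only bases covered in all 3 stages it was at 14.7 Mb. That choice gives the same list for every stage, so it cannot show a difference between stages. The share of genes at least as far as HOXA was 33.8% in G1, 11.6% in S and 30.6% in G2. The nearest domain in G1 was chr7:31500001-32200000, over PDE1C, PPP1R17 and CCDC129, and in G2 it was chr7:31600001-32400000 over the same 3 genes. The S list held no domain there, and its nearest one was chr7:41700001-42800000, over INHBA, GLI3 and 2 noncoding genes. HOXB had the same nearest domain in all 3 stages, chr17:49700001-52900000, over CA10 and KIF2B among 5 genes. For HOXD it began at chr2:167400001 in G1 and S and at 167500001 in G2, over XIRP2. The nearest domains of HOXC lay at lower coordinates than the cluster, at chr12:38000001-38500000 in G1, 34400001-34800000 in S and 33200001-34900000 in G2.

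All 4 clusters lay in stretches of 16.5 Mb or more without a domain. The stretch around HOXC measured 59.4 Mb in G1 and 62.6 Mb in S and G2, that around HOXD 36.6, 37.4 and 37.2 Mb, that around HOXA 27.0, 37.2 and 27.0 Mb and that around HOXB 16.5, 17.0 and 16.5 Mb. Members of a cluster share these values to within the cluster's length. In HOXC the nearest member was HOXC13 and the farthest HOXC4, at 15.8 and 15.9 Mb in G1. On the full lists the end with group 13 was the nearer in all 4 clusters. With only domains of at least 500 kb, the nearest one of HOXD in G2 lay on the other side, at 27.9 Mb. Each stage has 1 list on a 100 kb grid with no scores and no replicates, so no error can be given for these distances. HOX RNA at the lamina of HEK293FT and the domains of HCT116 come from different cells and were not tested against each other.

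**Figure D5:**
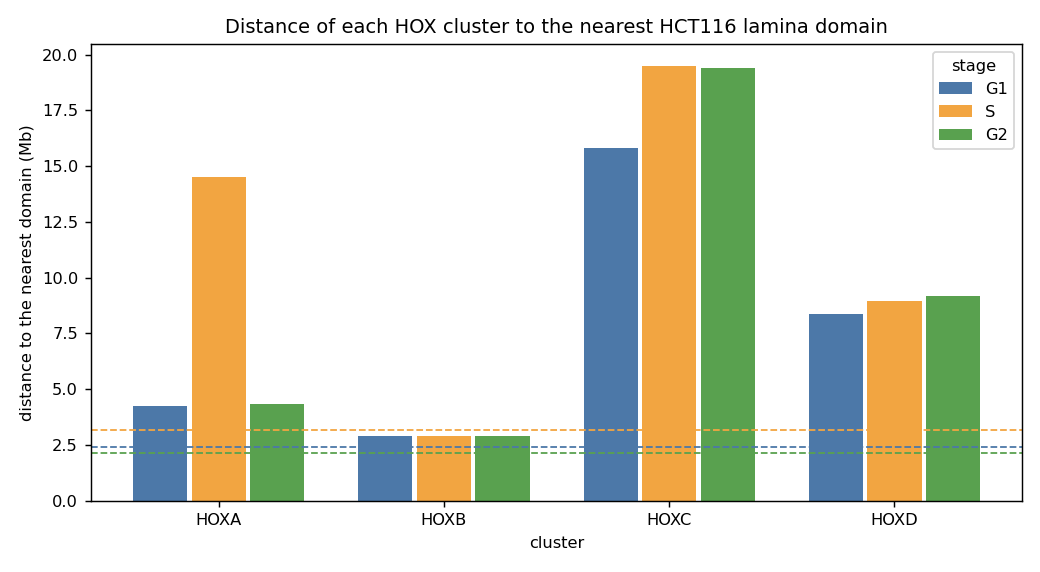
Distance in Mb from each HOX cluster to the nearest HCT116 lamina domain in G1, S and G2; bars start at 0 and dashed lines give the median distance of all placed genes in each stage. HOXC has the tallest bars at 15.8 to 19.5 Mb, HOXB has equal bars of 2.89 Mb, and HOXA is at 14.5 Mb in S against 4.26 and 4.36 Mb in G1 and G2.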

How the data were processed

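RNA was measured in 8 HEK293FT libraries in 4 groups of 2. The authors deposited read counts per gene, per the file headers made by featureCounts 1.5.2 from hg19 alignments and RefFlat genes, without strand and with a read counted for every gene it overlaps. TopHat2 2.1.1 and Bowtie2 2.3.2 are named in the submitters' processing notes. Total counts were 2321291 to 8557777 per library. Reads carry no molecular identifiers, so intervals or floors would cover counting error only. The authors deposited 1 consensus domain list per HCT116 stage, as intervals without scores or coverage; its caller and how replicates entered it are not given in the sources used here.

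Genes were filtered by filterByExpr, scaled by TMM and tested with a model that held all 8 libraries and a mean for each group (edgeR 4.0.16, R 4.3.3, quasi-likelihood, Benjamini-Hochberg over 16504 genes, call at adjusted p under 0.05), for 6 contrasts. The fit was tested on simulated data. CPM per kb uses exonic length. Sharing of exonic bases was computed from exon coordinates. Distance is the gap from a cluster's span to the nearest domain, over all genes placed on 1 chromosome.

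Members tested were named with their level, except 1 that is counted in every total and not reported here by itself; values in every library were given for the 3 highest per kb of each cluster and the 20 called members with the smallest adjusted p. Any other gene or library value was chosen after values were seen. Members and lists were chosen with earlier results of these data known. Alternatives were DESeq2 size factors, total counts, upper-quartile factors, dropping the filter or asking for 10 counts in each library, DESeq2 1.42.0, only the 4 libraries compared, a replicate block and leaving out each library, and for distances start sites, domains of at least 500 kb and bases in all 3 stages. Samples whose labels conflict were put in no group and not analysed here.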

Additional observations from a re-analysis of the deposited data

How the results depend on the processing

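The 43 called log2 fold changes of members kept their direction under all 16 alternatives. All 43 kept their call with DESeq2 size factors, no filter on low counts, the Wald test of DESeq2 and the replicate block, while 7 lost it with total counts, 3 with upper-quartile factors and 8 in fits of only the 4 libraries compared. With at least 10 counts in every library 41 could be tested and 1 lost its call. The all-gene median log2 fold change between the native lamina and the nuclear fraction moved with total counts from -0.07 to 0.22 and with upper-quartile factors to -0.22. That between the fractions moved with upper-quartile factors from 0.13 to 0.40. With total counts it went from 0.10 to 0.39 (native lamina over cytosolic), from -0.04 to 0.13 (PFA lamina over nuclear), from 0.08 to 0.25 (PFA lamina over cytosolic) and from 0.06 to -0.06 (PFA over native lamina). Between the native lamina and the nuclear fraction the 4 calls became 7 with total counts and 9 in the fit of 4 libraries. Between the native lamina and the cytosolic fraction the 4 calls became 8 in the fit of 4 libraries. Between the PFA lamina and the nuclear fraction the 12 calls became 7 with total counts and 4 in the fit of 4 libraries. Without the filter 1 member was called between the PFA lamina and the cytosolic fraction and 2 between the PFA and the native lamina, where the DESeq2 Wald test also called 2. Restricting the members to those without shared exonic bases, a choice made after seeing the data, left 14 of 23 calls between the fractions, 2 of 4 in each native lamina comparison and 6 of 12 between the PFA lamina and the nuclear fraction, from fewer members. Leaving out 1 library at a time gave 13 to 23 calls between the fractions, 0 to 9 for native lamina against nuclear, 0 to 10 for native lamina against cytosolic, 0 to 19 for PFA lamina against nuclear, 0 to 2 for PFA lamina against cytosolic and 0 to 5 for PFA against native lamina. A group left with 1 library is assumed there to vary like the others.

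Groups share replicate numbers, but the labels name no shared batch or day, and deviations of same-numbered libraries correlated at 0.280, 0.158, 0.0949, 1e-04, -0.0674 and 0.321 over the 6 pairs of groups, so pairing was not taken as established. With the replicate block 23 members were called between the fractions, 7 between the native lamina and the nuclear fraction, 6 between the native lamina and the cytosolic fraction, 15 between the PFA lamina and the nuclear fraction and 0 in the other comparisons.

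For the distances, counting only bases in all 3 stages gives the same list for every stage, so it cannot show a difference between stages. It put HOXA at 14.7 Mb, HOXC at 19.5 Mb and HOXD at 9.16 Mb. Member start sites put HOXB at 3.02 Mb. With domains of at least 500 kb HOXC was at 20.3 Mb in S and HOXD at 27.9 Mb in G2. The cause of these changes was not tested, and depth limits HOXB1, HOXC12 and HOXD12, which gave no call.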
